A study of Mus musculus with 12 samples.

Results

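This account follows 10 genes in mouse liver: Trp53, which encodes the transcription factor p53, and 9 genes that p53 is known to switch on to stop cell division or to limit itself. They were chosen by gene symbol from 23420 genes in the count tables, and all 10 were among the 13693 genes with enough reads to be tested. The samples are whole livers of C57BL/6 mice, 12 RNA libraries in 6 groups of 2, and every group carries floxed alleles of Gdown1, a protein that binds RNA polymerase II and is encoded by Polr2m. KO livers also carry Alb-Cre, a recombinase under the albumin promoter that acts in hepatocytes, while FF livers carry the floxed alleles with p53 intact and no Cre named; both were taken at 7 weeks. DKO livers carry Alb-Cre and lack p53 (p53-/-), and p53KO livers lack p53 and keep Gdown1; both were taken at 8 weeks. DKO TAM livers lack p53 and carry Alb-CreERT2, the form of that Cre which tamoxifen activates, and p53KO TAM livers lack p53 and have no Cre named; both were taken 24 hours after tamoxifen, at an age the labels do not give. The p53 null allele is present in all cells, whereas Gdown1 is lost in hepatocytes, so the other cells of the liver keep it. The presence of p53 goes with age and with the set of libraries, and these cannot be told apart; nor can effects of Cre be told apart from those of the deletion it makes.

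p53 is kept scarce in healthy tissue because Mdm2, itself a p53 target, marks it for destruction. Damage and other stresses free p53 from this loop, after which it binds a sequence made of a pair of decamers near its target genes and raises their transcription. Cdkn1a encodes p21, which blocks cyclin-dependent kinases, and Btg2 and Gadd45a also restrain the cell cycle. Ccng1 encodes cyclin G1, a partner of Mdm2, and Zmat3 an RNA-binding protein. Psrc1 encodes a protein of the mitotic spindle, and Plk2 and Plk3 are polo-like kinases that also respond to stress.

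Library totals ranged from 4939408 to 8776369 counts. Polr2m averaged 62.1 CPM in KO and 98.5 CPM in FF livers, 59.0 CPM in DKO and 95.9 CPM in p53KO livers, and 60.3 CPM in DKO TAM and 77.3 CPM in p53KO TAM livers; the last difference did not pass the test (edgeR adjusted p = 0.063). CPM are counts relative to the library total, scaled by TMM, which takes most genes as unchanged. The liver label was borne out by hepatocyte markers in every library, but the 8 hepatocyte markers summed to 66867 to 76735 CPM in KO against 119738 to 120809 CPM in FF livers, to 38258 to 40691 CPM in DKO against 130162 to 134553 CPM in p53KO livers, and to 50422 to 53640 CPM in DKO TAM against 123540 to 126800 CPM in p53KO TAM livers. In bulk liver, fewer cells of a type and less RNA per cell cannot be told apart.

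By the exon positions in the count tables (mm10), Trp53 (chr11:69580359-69591873), Cdkn1a (chr17:29090986-29100722), Psrc1 (chr3:108383804-108388231) and Plk2 (chr13:110395044-110400843) lie on the plus strand. Mdm2 (chr10:117688905-117710716), Ccng1 (chr11:40748552-40755286), Btg2 (chr1:134074865-134079155), Gadd45a (chr6:67035096-67037407), Plk3 (chr4:117128655-117133952) and Zmat3 (chr3:32334794-32365665) lie on the minus strand. Exons of genes on the other strand share 76 bases with Plk3 (3.21% of its exon length, Tctex1d4) and 162 bases with Zmat3 (2.08%, 4930429B21Rik). The file headers of the 7-week libraries name no strand option and the other files do not say how strand was treated; counts made without strand cannot tell such genes apart.

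The promoters of the genes that carry the p53 response were searched for the p53 consensus site in windows of 300 bases, 250 before to 50 after the start of transcription (RefSeq, GRCm38.p6). Of the 10 genes, 9 had windows, 11 in all; Zmat3 had none. A full site was counted where both decamers lay side by side with at most 2 mismatches. The fixed C and G of each decamer had to match, and the consensus reads the same on both strands. It was found in 2 of the 11 windows, 1 window of Cdkn1a and that of Ccng1, against 107 of 32851 windows of all genes (0.326%). At least 1 exact decamer stood in 5 of the 11 windows, against 8.36% of all windows. Both windows with a full site are shown because these 2 genes differ in how they behaved without p53; capitals mark the site, which had 1 mismatch in each. In Cdkn1a (chr17:29090729-29091028, plus strand) it spans positions -51 to -32 from the start in that window, and in Ccng1 (chr11:40755237-40755536, minus strand) positions -195 to -176. Cdkn1a has a further window, at a start downstream of this one (chr17:29093519-29093818), which held neither a full site nor an exact decamer.
Cdkn1a promoter: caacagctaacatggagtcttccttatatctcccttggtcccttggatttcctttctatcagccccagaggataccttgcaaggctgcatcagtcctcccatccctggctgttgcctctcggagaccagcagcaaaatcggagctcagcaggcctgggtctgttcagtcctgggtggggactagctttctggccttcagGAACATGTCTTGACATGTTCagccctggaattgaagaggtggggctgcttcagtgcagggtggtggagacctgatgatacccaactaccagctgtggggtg
Ccng1 promoter: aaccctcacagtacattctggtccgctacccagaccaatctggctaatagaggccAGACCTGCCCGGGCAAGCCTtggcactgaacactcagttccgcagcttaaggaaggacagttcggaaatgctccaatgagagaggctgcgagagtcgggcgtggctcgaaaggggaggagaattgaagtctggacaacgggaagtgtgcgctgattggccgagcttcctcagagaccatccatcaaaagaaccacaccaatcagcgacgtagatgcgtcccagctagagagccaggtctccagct
Outside the 10 genes, 104 genes had a full site in such a window and 43 of them were tested: 5 were higher and 4 lower in KO against FF livers, 11.6% higher against 6.92% of all genes tested. A match of this kind is a description of the letters, and 9 of the 11 windows had none.

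**Figure D1:**
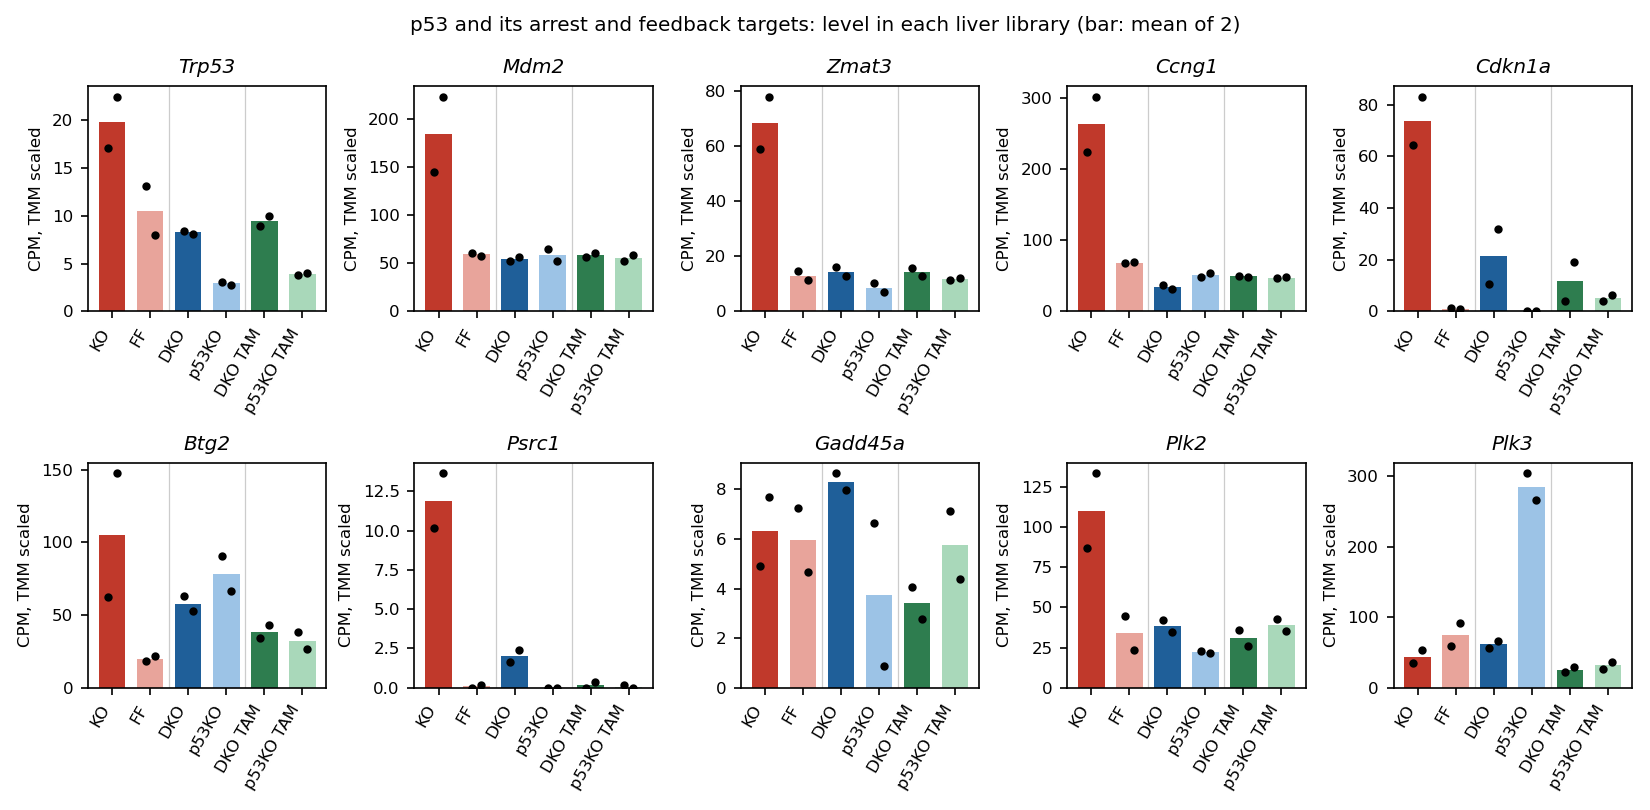
Level of each gene in each library, in CPM scaled by TMM (vertical axis, from 0), by group; bars are means of 2 libraries and points the libraries. In 7 of the 10 panels both KO points lie above every other point; Gadd45a, Btg2 and Plk3 differ, and Plk3 peaks in p53KO livers.

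Trp53 mRNA itself stood at 17.1 and 22.5 CPM in KO livers, against 13.1 and 7.94 CPM in FF livers. Both KO libraries lay above both FF libraries, and the rise of 0.93 ± 0.24 on the log2 scale passed the edgeR quasi-likelihood test (SE; adjusted p = 0.013). It was lost when KO replicate 2 (0.71, adjusted p = 0.14) or FF replicate 2 (0.59, adjusted p = 0.20) was left out. Trp53 reads were also present in p53-null livers: 8.39 and 8.13 CPM in DKO, against 3.07 and 2.79 CPM in p53KO livers. Counts were summed over all exons of the gene, and which part of it the null allele lacks is not given in the sources used here. The p53KO level was below that of FF livers (log2 fold change -1.81 ± 0.31, adjusted p = 0.0087). The difference did not pass in fits that left out FF replicate 1 (-1.43, adjusted p = 0.11), p53KO replicate 1 (0.070) or p53KO replicate 2 (0.065).

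Trp53 was the gene of the 10 that rose in all 3 comparisons of Gdown1 loss. It rose by 1.48 ± 0.29 in DKO against p53KO livers (adjusted p = 5.0e-04) and, within a day of tamoxifen, by 1.29 ± 0.28 on the log2 scale (adjusted p = 0.0039). In that last comparison the values were 8.96 and 10.01 CPM in DKO TAM, against 3.79 and 3.97 CPM in p53KO TAM livers, with no overlap; without p53KO TAM replicate 1 the adjusted p was 0.052. Markers of liver cell types also differed in these comparisons, not all of them in the same direction. In KO livers stellate markers summed to 512 to 539 CPM, against 361 to 438 CPM in FF livers. Macrophage markers summed to 651 to 706 against 520 to 542 CPM there, and endothelial markers to 955 to 1037 against 1122 to 1180 CPM. Cholangiocyte and erythroid markers overlapped between KO and FF livers. Stellate markers (8 of 8 detected) summed to 1064 to 1152 CPM in DKO against 271 to 275 CPM in p53KO livers. Macrophage markers (8 of 8) summed there to 1026 to 1087 against 475 to 518 CPM, and cholangiocyte markers (7 of 7) to 267 to 299 against 66.3 to 67.8 CPM. Endothelial markers (8 of 8) were lower in sum, at 751 to 877 CPM in DKO against 1093 to 1122 CPM in p53KO livers, where 2 of them were called higher and 4 lower, and so were erythroid markers, at 36.0 to 42.7 against 222 to 228 CPM, with 2 of 5 at 0. In the tamoxifen groups stellate markers overlapped, at 333 to 487 CPM in DKO TAM and 385 to 429 CPM in p53KO TAM livers. Others did not overlap there: macrophage markers summed to 824 to 825 CPM in DKO TAM against 642 to 699.9 CPM in p53KO TAM livers, cholangiocyte markers to 71.2 to 90.0 against 50.5 to 65.3 CPM, endothelial markers to 728 to 788 against 1100 to 1136 CPM and erythroid markers to 80.1 to 90.9 against 95.7 to 100.4 CPM. T and NK cell, B cell and neutrophil markers summed to at most 17.0 CPM in any library. Their part in the Trp53 level was not tested. Over the 6 groups Trp53 was highest in KO, and FF and DKO TAM, the next in order, overlapped.

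With p53 present, loss of Gdown1 went with higher levels of most of the set. Of the 10 genes, 8 rose and 0 fell in KO against FF livers, where 6.92% of all tested genes rose and 7.88% fell (2026 genes called, 14.8%). The median log2 fold change of the 10 was 1.83, beside 0.02 for all genes tested. Gadd45a and Plk3 were the exceptions. Without FF replicate 2 fewer of the 10 genes were called, and fewer of all tested genes too.

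Among the feedback genes, Mdm2 stood at 145 and 223 CPM in KO livers, against 61.0 and 57.3 CPM in FF livers. Ccng1 had 224 and 302 CPM in KO livers, against 67.3 and 69.1 CPM in FF livers. Zmat3 had 58.8 and 77.9 CPM in KO livers, against 14.5 and 11.2 CPM in FF livers. No KO library overlapped an FF library for these 3 genes. Mdm2 rose by 1.64 ± 0.18 (adjusted p = 1.3e-05), Ccng1 by 1.95 ± 0.15 (adjusted p = 3.7e-07) and Zmat3 by 2.42 ± 0.21 on the log2 scale (adjusted p = 1.2e-06). Per kilobase of exon, mean KO levels were 75.5 CPM for Ccng1 and 60.8 CPM for Mdm2, but 8.78 CPM for Zmat3, whose counted exons cover 7782 bases.

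Among the arrest genes, Cdkn1a stood at 64.4 and 83.0 CPM in KO livers, against 1.13 and 0.864 CPM in FF livers, a 74.0-fold difference that rests on 10 counts in FF. The rise passed the test (adjusted p = 0.015), yet not without KO replicate 2 (adjusted p = 0.058), FF replicate 1 (0.088) or FF replicate 2 (0.12), nor with limma-voom (0.11). Psrc1 had 10.2 and 13.6 CPM in KO livers, against 0 and 0.173 CPM in FF livers. Over the groups this was 131 counts against 1, a 121-fold difference with a 95% counting interval of 21.3 to 4796 (adjusted p = 2.5e-05). Btg2 had 62.7 and 147 CPM in KO livers, against 18.1 and 21.6 CPM in FF livers. The KO libraries differed from each other by more than those of any other group, and the rise of 2.39 ± 0.43 (adjusted p = 0.010) did not pass in fits that left out FF replicate 1 (0.072) or FF replicate 2 (0.068), or in a fit to the 4 libraries compared (0.14). Gadd45a stood at 4.91 and 7.69 CPM in KO livers, against 7.23 and 4.66 CPM in FF livers, which overlap (0.10 ± 0.57, adjusted p = 0.94). Its exons share 238 bases, 19.4% of their length, with an antisense gene, E230016M11Rik, whose reads counts made without strand cannot tell apart.

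The 2 polo-like kinases parted. Plk2 had 86.9 and 134 CPM in KO livers, against 44.7 and 23.5 CPM in FF livers, and rose by 1.71 ± 0.31 on the log2 scale (adjusted p = 0.0058; 0.11 with only the 4 libraries compared). Plk3 had 34.6 and 53.4 CPM in KO livers, against 58.5 and 91.2 CPM in FF livers: lower in both KO libraries, by -0.78 ± 0.26, which missed the threshold (adjusted p = 0.076). Without KO replicate 2 (adjusted p = 0.034) or FF replicate 1 (0.020), and with DESeq2 (0.017), it passed.

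Other genes known as p53 targets were counted beside them, 47 genes in 3 groups. Of these 45 were tested, and in KO against FF livers 21 were higher and 1 lower, beside 6.92% and 7.88% of all tested genes; the median of their log2 fold changes was 0.64. Among 14 genes of cell death 8 rose, among them the death receptor Tnfrsf10b (4.79 ± 0.41), which rests on 6 counts in FF livers. Another was the exonuclease Aen, at 43.9 and 51.9 CPM in KO against 12.7 and 8.81 CPM in FF livers (2.17 ± 0.23, adjusted p = 8.3e-06). Among 20 genes of metabolism, repair and stress 10 rose, including Polk, a DNA polymerase of lesion bypass (2.04 ± 0.21), and Sesn2, a stress protein that restrains mTORC1 (1.89 ± 0.29). Phlda3, an inhibitor of Akt, rose as well (4.96 ± 0.48), on 5 counts in FF livers. Among 11 tested genes of arrest and feedback 3 rose and 1 fell: Gtse1, a microtubule-bound protein that restrains p53 (2.97 ± 0.38), and Tob1, a relative of Btg2 (0.55 ± 0.14), were higher, and Pml lower (-0.65 ± 0.18). Gm16197, listed in RefSeq as Trp53cor1 and known as an RNA transcribed near Cdkn1a, had 22 counts in KO and 2 in FF livers, 10.1-fold with a 95% counting interval of 2.49 to 88.8 (adjusted p = 0.018). Of 14 tested genes upstream of p53, 0 rose and 1 fell, the damage kinase Atm (-0.55 ± 0.13, adjusted p = 0.0075).

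**Figure D2:**
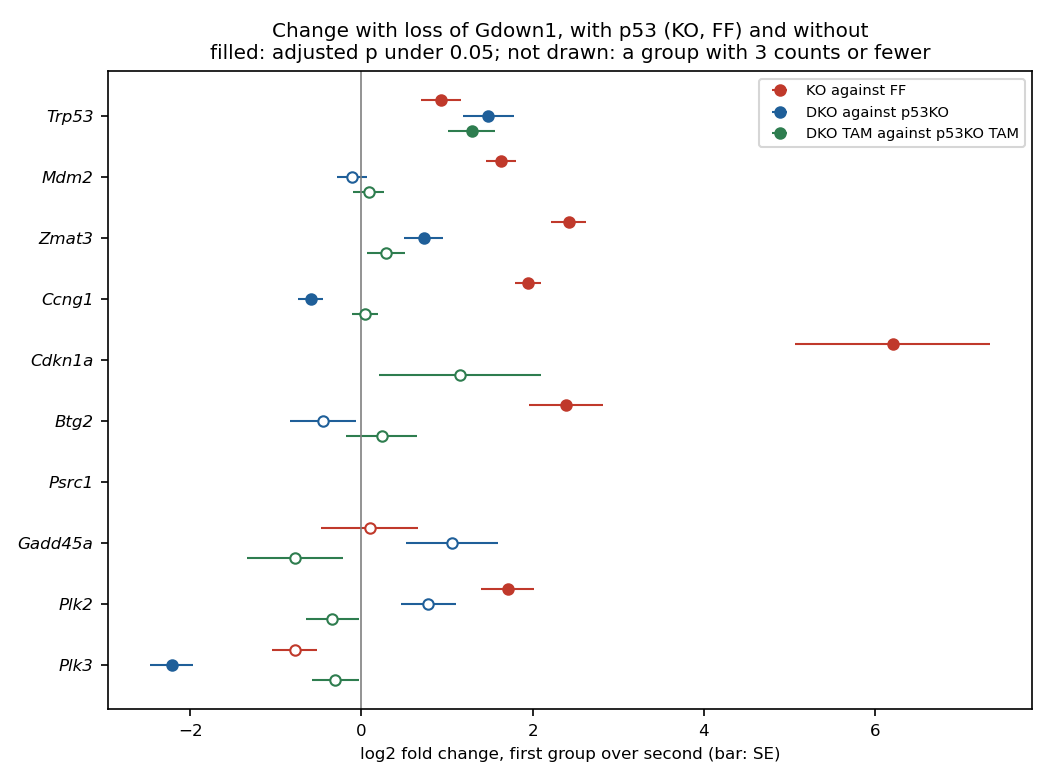
Log2 fold change with its SE (horizontal axis) for each gene in KO against FF, DKO against p53KO and DKO TAM against p53KO TAM livers. Filled points passed an adjusted p of 0.05. Comparisons with a group of 3 counts or fewer are not drawn, which takes out Psrc1 and, for DKO against p53KO, Cdkn1a. Trp53 is filled in all 3. Mdm2, Ccng1, Btg2 and Plk2 are filled above 0 for KO alone, and Ccng1 lies below 0 for DKO, except when scaled by library totals alone (0.17).

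Without p53, the same loss of Gdown1 gave a mixed picture. In DKO against p53KO livers 4 of the 10 genes rose and 2 fell, where 25.7% of all tested genes rose and as many fell (7041 genes called, 51.4%), a share near that of the set. The median log2 fold change of the 10 was 0.75, beside 0.01 for all genes tested. Scaling weighs on this comparison: all tested genes split into 3516 higher and 3525 lower with TMM, 4662 and 2435 under the upper quartile, and 8823 and 959 when scaled by library totals alone, which moved the median of all genes by 0.77.

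Cdkn1a and Psrc1 were present in DKO livers. Cdkn1a stood at 10.6 and 31.9 CPM in DKO livers, against 0 and 0.214 CPM in p53KO livers, or 498 counts against 1, a 223-fold difference with a 95% counting interval of 39.9 to 8831. The groups do not overlap (adjusted p = 0.013), but the call was lost without p53KO replicate 1 (0.096) or p53KO replicate 2 (0.066) and with limma-voom (0.16). The 2 DKO libraries differed from each other 3.01-fold. Psrc1 had 1.61 and 2.40 CPM in DKO livers and 0 counts in p53KO livers, so that it was at least 7.02-fold higher, taking 3 counts over the group as the floor (adjusted p = 7.2e-04). Zmat3 stood at 15.9 and 12.8 CPM in DKO livers, against 10.1 and 7.08 CPM in p53KO livers (0.73 ± 0.23, adjusted p = 0.013), a call lost without DKO replicate 2 (0.11) or p53KO replicate 2 (0.14).

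Of the remaining genes none rose past the threshold, and 2 fell, Ccng1 and Plk3. Mdm2 had 51.8 and 56.7 CPM in DKO livers, against 65.0 and 51.9 CPM in p53KO livers, which overlap (-0.11 ± 0.17, adjusted p = 0.61; 0.66 and adjusted p = 0.0021 with library totals alone). Ccng1 had 36.6 and 30.9 CPM in DKO livers, against 47.6 and 54.5 CPM in p53KO livers. It fell by -0.59 ± 0.15 on the log2 scale (adjusted p = 0.0035), but stood at 0.17 with library totals alone, and without DKO replicate 3 the adjusted p was 0.051. Btg2 had 62.8 and 52.7 CPM in DKO livers, against 90.7 and 66.3 CPM in p53KO livers (-0.45 ± 0.38, adjusted p = 0.37). Plk2 had 42.1 and 34.5 CPM in DKO livers, against 22.9 and 21.7 CPM in p53KO livers, with no overlap. Its change of 0.78 ± 0.32 missed the threshold (adjusted p = 0.067). It passed with DESeq2 (0.012), upper quartile scaling (0.028), only the libraries compared (0.82, adjusted p = 0.0017) and library totals alone (1.55, adjusted p = 0.0017).

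Plk3 fell most. It had 56.5 and 66.3 CPM in DKO livers, against 304 and 266 CPM in p53KO livers, a log2 fold change of -2.22 ± 0.25 (adjusted p = 3.4e-05). Gadd45a had 8.65 and 7.96 CPM in DKO livers, against 6.66 and 0.858 CPM in p53KO livers. The p53KO libraries decided its value: 1.06 ± 0.54 (adjusted p = 0.13) with both, and 3.24 (adjusted p = 6.2e-04) without p53KO replicate 1. With both libraries it also passed with limma-voom (1.56, adjusted p = 0.046) and when scaled by library totals (1.823, adjusted p = 0.0099).

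The difference between the effects with and without p53 was tested directly. The DKO effect minus the KO effect was below 0 for 5 of the 10 genes and above it for 0 among those called, where 12.9% of all tested genes were called lower and 9.75% higher (22.7% in all). The difference was -2.54 ± 0.21 for Ccng1 (adjusted p = 1.9e-06), -1.75 ± 0.25 for Mdm2 (1.9e-04) and -1.69 ± 0.31 for Zmat3 (0.0013). It was -2.84 ± 0.58 for Btg2 (adjusted p = 0.012), which did not pass without FF replicate 1 (0.056) or DKO replicate 3 (0.052). For Plk3 it was -1.44 ± 0.36 (adjusted p = 0.016), lost without KO replicate 2 (0.062), DKO replicate 2 (0.058) or p53KO replicate 1 (0.067). Trp53 (0.55 ± 0.38, adjusted p = 0.33), Plk2 (-0.93 ± 0.44, adjusted p = 0.17) and Gadd45a (0.96 ± 0.78, adjusted p = 0.42) did not pass. Each passed in 1 other setting: Trp53 with library totals alone (1.07, adjusted p = 0.047), Plk2 without FF replicate 1 (-1.46, adjusted p = 0.017) and Gadd45a without p53KO replicate 1 (3.14, adjusted p = 0.0088). For Cdkn1a and Psrc1 no such difference is given, because p53KO livers had 1 and 0 counts. The p53KO and FF levels enter every such difference. Btg2 averaged 78.5 CPM in p53KO and 19.8 CPM in FF livers, and Plk3 285 and 74.9 CPM. In DKO livers Btg2 had 62.8 and 52.7 CPM, which overlapped KO livers.

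**Figure D3:**
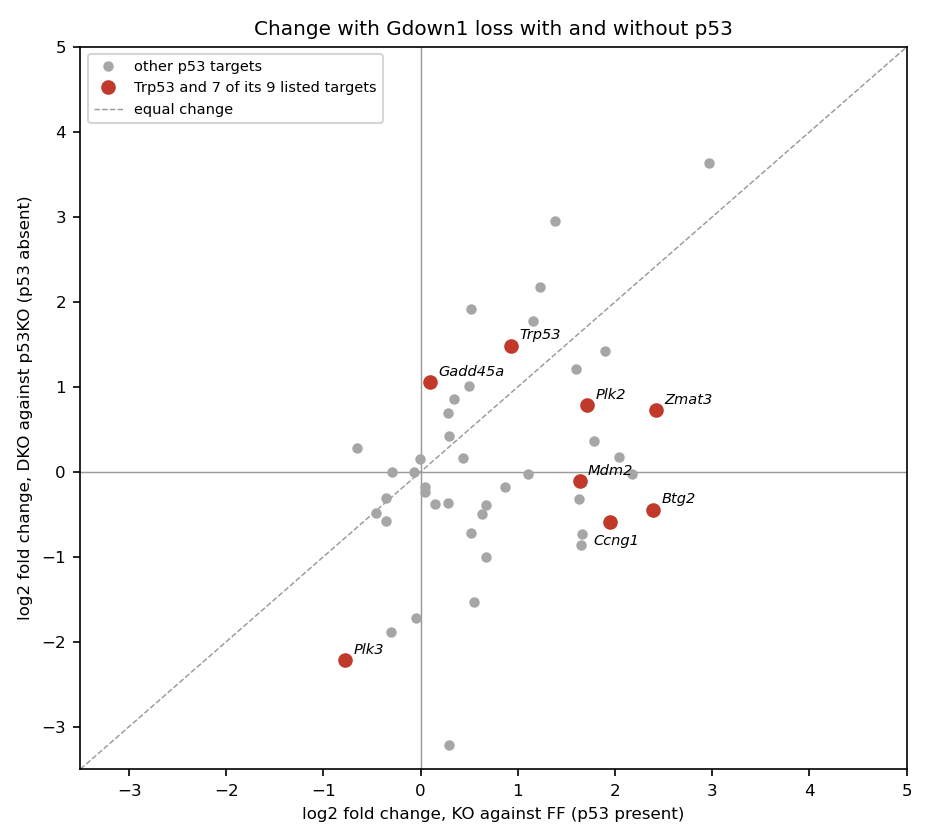
Log2 fold change in KO against FF livers (horizontal axis, p53 present) and in DKO against p53KO livers (vertical axis, p53 absent) for Trp53 and 7 of its targets (red) and 39 other p53 targets (grey), leaving out genes with 3 counts or fewer in any of these groups; the dashed line marks equal change. Mdm2 (1.64 and -0.11), Ccng1 (1.95 and -0.59), Btg2 (2.39 and -0.45) and Zmat3 (2.42 and 0.73) lie right of and below the line, and Trp53 (0.93 and 1.48) above it.

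Of the 45 other p53 targets tested, 15 were higher and 10 lower in DKO against p53KO livers, where 25.7% of all tested genes were higher and 25.7% lower, and the median of their log2 fold changes was 0.00. Those with the smallest p included Gtse1, at 10.5 and 13.4 CPM in DKO against 1.37 and 0.429 CPM in p53KO livers (3.63 ± 0.41), and the death gene Pmaip1 (2.17 ± 0.34), both higher. Tob1 (-1.54 ± 0.14) and the lipid enzyme and coregulator Lpin1 (-3.22 ± 0.31) were lower. Lpin1 had 159 to 162 CPM in DKO and 1109 to 1871 CPM in p53KO livers, beside 126 to 197 CPM in FF livers. The difference of effects was called lower for 17 of the 45 and higher for 1, beside 12.9% and 9.75% of all tested genes: Aen (-2.20 ± 0.34) and Slc19a2, a thiamine transporter (-1.68 ± 0.23), were among the lower, and Pml (0.93 ± 0.25) was higher. Cell division genes moved as well. Of 22 genes of the cell cycle engine, 17 were higher and 2 lower in DKO against p53KO livers, with a median of 1.79, beside 25.7% of all tested genes in each direction, and 5 were higher and 2 lower in KO against FF livers, with a median of 0.64, beside 6.92% and 7.88%. Cdk1, the kinase that drives mitosis, rose by 4.82 ± 0.33 and Foxm1, a transcription factor of mitotic genes, by 4.77 ± 0.34 in DKO against p53KO livers.

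Relatives of the 10 genes were counted as well. Of 14 tested paralogues, 7 were higher and 2 lower in DKO against p53KO livers, where 25.7% of all tested genes were higher and 25.7% lower. Plk1, the mitotic polo-like kinase, had 24.6 and 31.3 CPM in DKO livers, against 0.171 and 0.214 CPM in p53KO livers, 147-fold with a 95% counting interval of 40.5 to 1216. Cdkn1c, which encodes the inhibitor p57, had 17.0 and 10.4 CPM in DKO livers, against 0.854 and 1.501 CPM in p53KO livers (3.56 ± 0.39, adjusted p = 1.2e-06). In KO against FF livers 4 paralogues rose and 0 fell, beside 6.92% and 7.88% of all tested genes; among them was Gadd45b, with 37 counts against 3, 11.3-fold with a 95% counting interval of 3.59 to 57.5. Trp63 and Trp73, the 2 relatives of p53, had too few counts to be tested: 0 and 0 in KO, 2 and 0 in FF, 7 and 1 in DKO and 0 and 0 in p53KO livers.

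A day after tamoxifen, 1 of the 10 genes rose and 0 fell in DKO TAM against p53KO TAM livers, where 8.61% of all tested genes rose and 10.1% fell (18.7% in all). The gene was Trp53. Cdkn1a had 4.06 and 19.03 CPM in DKO TAM livers, against 3.93 and 6.47 CPM in p53KO TAM livers, which overlap (1.16 ± 0.95, adjusted p = 0.46). Without DKO TAM replicate 2 it was -0.31. Both tamoxifen groups held more Cdkn1a than p53KO livers, at 191, 58 and 1 counts in DKO TAM, p53KO TAM and p53KO livers, a difference between experiments that was not tested.

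Of the feedback genes none passed in this comparison. Mdm2 had 56.9 and 60.2 CPM in DKO TAM livers, against 52.0 and 58.7 CPM in p53KO TAM livers (0.08 ± 0.18), and Ccng1 had 49.4 and 48.7 CPM in DKO TAM livers, against 47.1 and 48.0 CPM in p53KO TAM livers (0.05 ± 0.15). Zmat3 (0.29 ± 0.22), Btg2 (0.24 ± 0.41), Plk2 (-0.34 ± 0.31), Plk3 (-0.30 ± 0.27) and Gadd45a (-0.77 ± 0.56) did not pass either, and Psrc1 had 3 counts in DKO TAM and 1 in p53KO TAM livers. With library totals alone Ccng1 (0.39, adjusted p = 0.040) and Zmat3 (0.64, adjusted p = 0.031) were also called higher. Of the 45 other targets, 7 were higher and 1 lower, beside 8.61% and 10.1% of all tested genes. Gtse1 (2.34 ± 0.50), the repair gene Ddb2 (1.21 ± 0.28) and 9030617O03Rik (0.98 ± 0.14) were higher, and the glutaminase Gls2 was lower (-1.66 ± 0.30). Gm16197 had 0.937 and 0.876 CPM in DKO TAM livers and 0 counts in p53KO TAM livers, at least 3.53-fold higher against 3 counts over the group (adjusted p = 0.016).

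The lasting and the 24-hour effects without p53 differed for 2 of the 10 genes, both lower in DKO (14.2% of all tested genes were lower and 13.4% higher, 27.6% in all). The 2 experiments also differ in the form of Cre, in tamoxifen and in the set of libraries. These cannot be told apart from the time since loss. For Plk3 the DKO effect minus the DKO TAM effect was -1.91 ± 0.37 (adjusted p = 0.0034). Its controls differed, at 285 CPM on average in p53KO and 31.8 CPM in p53KO TAM livers. For Ccng1 it was -0.64 ± 0.21 (adjusted p = 0.034), a call lost without any of DKO replicate 3, p53KO replicate 2 and the 4 tamoxifen libraries (adjusted p from 0.054 to 0.14), and under upper quartile scaling (0.13) or DESeq2 (0.088). Scaled by library totals it was -0.22 (adjusted p = 0.43). Above 0 lay Plk2 (1.12 ± 0.44, adjusted p = 0.092) and Gadd45a (1.83 ± 0.78, adjusted p = 0.11), neither of which passed. Plk2 was called higher with DESeq2 (1.15, adjusted p = 0.020), in a fit to the libraries compared (1.15, adjusted p = 0.0042) and when scaled by library totals (1.54, adjusted p = 0.027), and Gadd45a with limma-voom (2.34, adjusted p = 0.047) and without p53KO replicate 1 (4.01, adjusted p = 0.0011). Trp53 (0.20 ± 0.42), Mdm2 (-0.20 ± 0.25), Btg2 (-0.68 ± 0.56) and Zmat3 (0.44 ± 0.32) did not pass, and for Cdkn1a and Psrc1 no difference is given, as above.

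Loss of p53 with Gdown1 kept was compared next. In p53KO against FF livers 1 of the 10 genes was higher and 1 lower, where 0.592% of all tested genes were higher and 0.27% lower (0.862% in all). The lower gene was Trp53 and the higher Plk3. Mdm2 had 65.0 and 51.9 CPM in p53KO livers, against 61.0 and 57.3 CPM in FF livers (-0.01 ± 0.18, adjusted p = 0.997). Ccng1 had 47.6 and 54.5 CPM in p53KO livers, against 67.3 and 69.1 CPM in FF livers, with no overlap (-0.42 ± 0.15, adjusted p = 0.26). Zmat3 (-0.55 ± 0.25, adjusted p = 0.40) and Plk2 (-0.59 ± 0.34, adjusted p = 0.56) also lay lower in both p53KO libraries without passing. Gadd45a had 6.66 and 0.858 CPM in p53KO livers, against 7.23 and 4.66 CPM in FF livers, which overlap (-0.55 ± 0.61, adjusted p = 0.80). Cdkn1a had 1 count in p53KO and 10 in FF livers (adjusted p = 0.83), and Psrc1 had 0 and 1.

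For Plk3 and Btg2 the p53KO values were the higher. Plk3 had 304 and 266 CPM in p53KO livers, against 58.5 and 91.2 CPM in FF livers, and was higher by 1.92 ± 0.25 (adjusted p = 0.0072; 0.071 without p53KO replicate 1). Btg2 had 90.7 and 66.3 CPM in p53KO livers, against 18.1 and 21.6 CPM in FF livers, with no overlap. Its difference of 1.98 ± 0.44 missed the threshold (adjusted p = 0.12), but passed with DESeq2 (0.0012) and with only the libraries compared (2.3e-04). Immediate early genes, which cells switch on within minutes of a stimulus, were in sum also higher in p53KO than in FF livers. The 12 of them summed to 1004 and 592 CPM in p53KO livers, against 218 and 211 CPM in FF livers. Egr1 alone held 236 to 438 CPM in p53KO and 27.5 to 36.8 CPM in FF livers, and did not pass. Of the 12, 3 passed as higher, beside 0.592% of all tested genes. They were Zfp36 (1.06 ± 0.14), Ier2 (1.40 ± 0.25) and Dusp1, which averaged 65.0 CPM in p53KO and 18.4 CPM in FF livers. The 12 summed to 396 and 420 CPM in DKO livers, and to 210 and 263 CPM in KO livers, where Btg2 had its highest mean. Their part in the levels of Plk3 and Btg2 was not tested. The comparisons of p53KO with FF and of DKO with p53KO share the p53KO libraries, so that their Plk3 and Btg2 levels enter both.

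**Figure D4:**
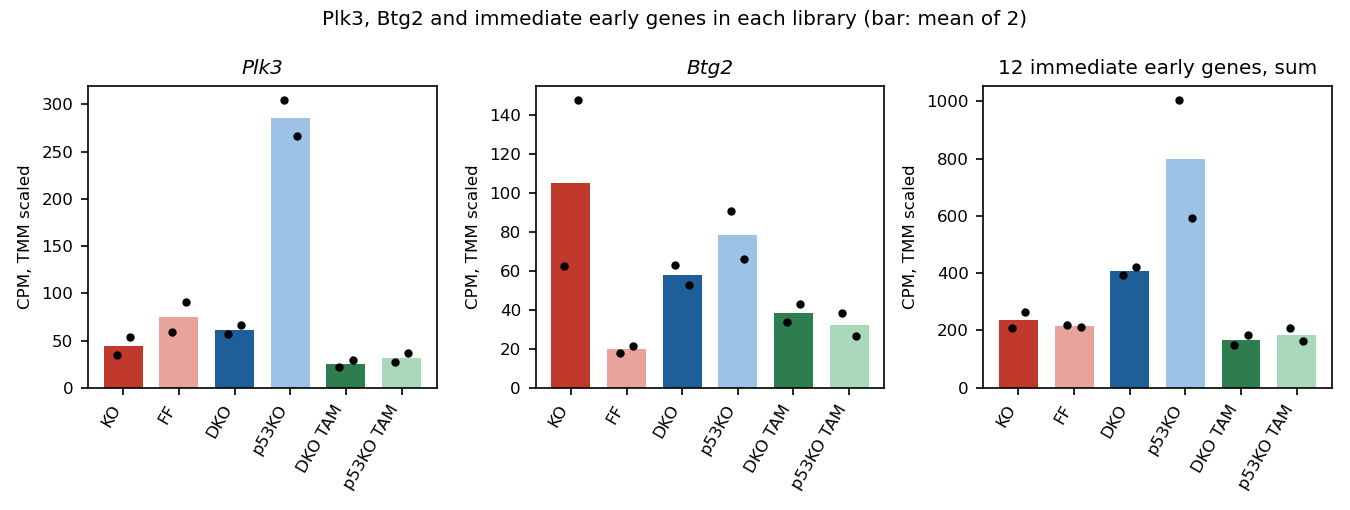
Plk3, Btg2 and the sum of 12 immediate early genes in each library, in CPM scaled by TMM (vertical axes, from 0), by group; bars are means of 2 libraries and points the libraries. Plk3 and the sum are highest in both p53KO libraries, at 304 and 266 CPM and at 1004 and 592 CPM.

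With Gdown1 lost, the livers without p53 held less of the set. In DKO against KO livers 0 of the 10 genes were higher and 6 lower, where 19.8% of all tested genes were higher and 20.4% lower (40.2% in all), and the median log2 fold change of the 10 was -1.64. Ccng1 averaged 33.8 ± 4.05 CPM in DKO and 263 ± 55.3 CPM in KO livers (SD, n = 2 each), 7.80-fold lower in DKO (-2.96 ± 0.15, adjusted p = 1.3e-09). Zmat3 (-2.24 ± 0.19), Mdm2 (-1.76 ± 0.17), Psrc1 (-2.56 ± 0.40), Plk2 (-1.52 ± 0.29) and Trp53 (-1.25 ± 0.22) fell as well. Psrc1 in DKO livers thus lay between the KO and the p53KO level, at 2.004 ± 0.56 CPM in DKO and 11.9 ± 2.46 CPM in KO livers. Cdkn1a averaged 21.3 ± 15.1 CPM in DKO and 73.7 ± 13.2 CPM in KO livers, with no overlap, but its difference of -1.79 ± 0.68 missed the threshold (adjusted p = 0.080) and passed without DKO replicate 3 (0.049) and with limma-voom (0.042). Btg2 (-0.86 ± 0.38, adjusted p = 0.11), Gadd45a (0.41 ± 0.50, adjusted p = 0.55) and Plk3 (0.49 ± 0.26, adjusted p = 0.16) did not pass. Without KO replicate 1, Btg2 did (-1.36, adjusted p = 3.3e-04), and Plk3 did with library totals alone (0.92, adjusted p = 0.0052) and without KO replicate 2 (0.87, adjusted p = 0.040). Cell type markers moved with this comparison. Hepatocyte markers, 8 of 8 called lower, summed to 38258 to 40691 CPM in DKO and 66867 to 76735 CPM in KO livers. Stellate markers, 7 of 8 called higher, summed to 1064 to 1152 CPM in DKO and 512 to 539 CPM in KO livers, and macrophage markers, 7 of 8 called higher, to 1026 to 1087 CPM in DKO and 651 to 706 CPM in KO livers. Their part in the levels of the 10 genes was not tested.

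Of the 45 other targets tested, 5 were higher and 23 lower in DKO against KO livers, beside 19.8% and 20.4% of all tested genes. Aen (-2.33 ± 0.21), Fas (-1.46 ± 0.15) and Polk (-2.13 ± 0.19) were lower. E2f7, a repressor of E2F targets, was higher (2.51 ± 0.41). The age of 8 against 7 weeks goes with p53 state here too.

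**Figure D5:**
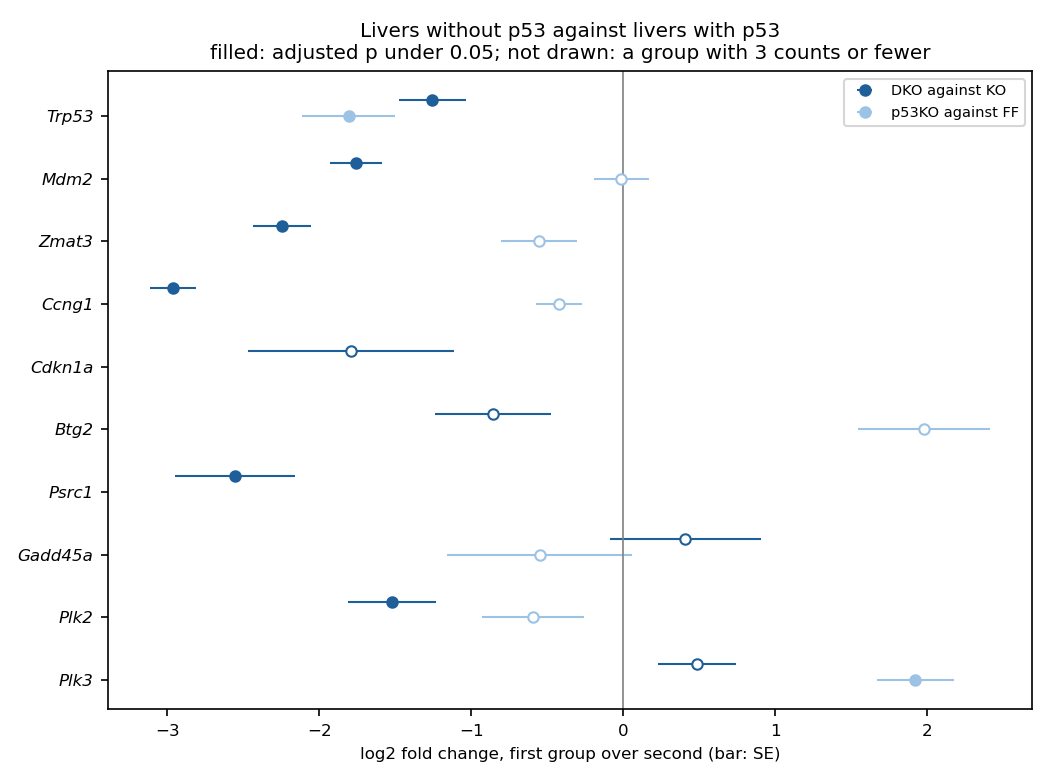
Log2 fold change with its SE (horizontal axis) in DKO against KO livers and in p53KO against FF livers for each gene; filled points passed an adjusted p of 0.05, and comparisons with a group of 3 counts or fewer are not drawn. The 6 genes that fell are filled left of 0 for DKO against KO, and Trp53 (-1.81) and Plk3 (1.92) are the filled points for p53KO against FF.

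Ranked over the 6 groups, the levels fell into a few shapes. Mdm2 was highest in KO, and all 5 other groups lay within 54.2 to 59.2 CPM with neighbours that overlap. Zmat3 and Plk2 were also highest in KO with no overlap, and their next 4 groups overlapped each neighbour in turn. Cdkn1a was highest in KO, then DKO, DKO TAM and p53KO TAM, where DKO TAM overlapped both DKO and p53KO TAM but these did not overlap each other, and then FF and p53KO. Gadd45a was highest in DKO, and from KO on every group overlapped the next. Plk3 was highest in p53KO, and FF overlapped DKO, the next in order, as KO did p53KO TAM.

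The genes whose levels followed Ccng1 most closely over the 12 libraries were Tmbim4 (r = 0.967), Eda2r (r = 0.967), Exoc4 (r = 0.966), 9030617O03Rik (r = 0.949) and Mlf2 (r = 0.946; Pearson, log2 of CPM plus 0.5, 13068 genes ranked). Eda2r, a receptor of the TNF family, had 32.9 and 74.0 CPM in KO livers, against 2.49 and 0.518 CPM in FF livers, and 1 and 0 counts in DKO and p53KO livers. For Cdkn1a they were St5 (r = 0.962), Tmem43 (r = 0.940), Slc1a4 (r = 0.936), Car2 (r = 0.924) and Slc6a8 (r = 0.912). For Trp53 they were Aga (r = 0.915), Mtch1 (r = 0.899), Gyg (r = 0.897), Neto2 (r = 0.891) and Zfp53 (r = 0.886). The points share libraries and groups, so these values describe likeness in these libraries alone.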

How the data were processed

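Libraries of total liver RNA were made with Takara's SMARTer Stranded kit, per the labels' protocols. What the authors deposited for each library is a table of raw counts, whole reads per gene. Per the submitters' processing notes, the authors used CASAVA 1.82, HISAT2, featureCounts and mm10 (GRCm38); the headers of the 4 files of 7-week libraries name featureCounts 1.6.4, by exon and gene, with no strand option, and the other files carry no program line. The other column used is the exon length that the authors deposited for each gene, in bases. Exon positions were read from the files (mm10), promoters from RefSeq (GRCm38.p6).

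The test was edgeR 4.0.16 (R 4.3.3), with filterByExpr at a minimum count of 10, TMM, 1 group-means model over the 12 libraries, robust quasi-likelihood F test, Benjamini-Hochberg adjustment over the 13693 genes tested, called under 0.05. SE is the log2 fold change over the square root of F. Tested genes held 99.9% of counts. With 3 counts in a library corresponding to 0.254 to 0.678 CPM, lower levels could not be told from 0. A fold against 0 counts is a bound at 3 counts over the group; with 1 to 3 counts it has a 95% exact binomial interval, and both cover counting error only. Titles of the 7-week and tamoxifen libraries carry a further number each, whose meaning is not given, and nothing states that libraries of a group came from separate animals, so p-values reflect only the spread among libraries, which may be technical. Libraries of each group differed beyond sampling noise, and none was left out.

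The 10 genes and all gene lists were chosen with earlier results of these data known. The 10 genes are named in every comparison; from a list, up to 4 called genes with the smallest p per comparison, and for likeness the 5 nearest genes. Trp63 and Trp73 and, for KO against FF and DKO against p53KO, Asns, were named after their values were seen. Symbols not in the files were matched through RefSeq synonyms. Alternatives were other scalings, no filter, DESeq2 1.42.0, limma-voom (limma 3.58.1), a fit to the compared libraries alone, a replicate block, leaving out each library in turn, and an adjusted p under 0.01. The method was tested on simulated data.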

Additional observations from a re-analysis of the deposited data

Results flagged for a closer look

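The change with loss of Gdown1 differed between livers without and with p53, by a test of the difference itself, for 5 of the 10 genes. All 5 differences lay below 0, where 12.9% of all tested genes were called lower and 9.75% higher (22.7% in all). The DKO effect minus the KO effect was -1.75 for Mdm2 (edgeR adjusted p = 1.9e-04), -2.54 for Ccng1 (1.9e-06), -2.84 for Btg2 (0.012), -1.44 for Plk3 (0.016) and -1.69 for Zmat3 (0.0013) on the log2 scale. For Mdm2, Ccng1, Btg2 and Zmat3 the gene rose with p53 present. For Btg2 the controls differed too, at 78.5 CPM on average in p53KO and 19.8 CPM in FF livers, and its DKO and KO libraries overlapped. For Plk3 both changes lay below 0, at -2.22 in DKO against p53KO and -0.78 in KO against FF livers.

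Between lasting loss and 24 hours of loss, both without p53, the DKO effect minus the DKO TAM effect was -0.64 for Ccng1 (adjusted p = 0.034) and -1.91 for Plk3 (0.0034). The time since loss goes with the form of Cre, tamoxifen and the set of libraries here.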

How the results depend on the processing

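The counts of the 10 genes called stayed within 1.5 times with RLE factors, no filter, DESeq2, only the libraries compared and the replicate block. For DKO minus DKO TAM, upper quartile scaling gave 1 and limma-voom 4, against 2; for DKO TAM against p53KO TAM, library totals gave 3, against 1. An adjusted p under 0.01 gave 5 for KO against FF, 3 for DKO minus KO and 1 for DKO minus DKO TAM. Leaving out 1 library gave 5 to 8 (KO against FF), 4 to 6 (DKO against p53KO), 0 to 1 (tamoxifen), 0 to 2 (p53KO against FF), 6 to 7 (DKO against KO), 4 to 5 (DKO minus KO) and 1 to 3 (DKO minus DKO TAM). The lowest counts came without FF replicate 2 (KO against FF), p53KO TAM replicate 1 (tamoxifen) and p53KO replicate 1 (p53KO against FF). Every fit without 1 library also called fewer of all tested genes than the main fit did.

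Signs turned for some genes. With library totals alone these were, for DKO against p53KO, Mdm2 (0.66), Ccng1 (0.17) and Btg2 (0.32), for tamoxifen Plk2 (0.0069) and Plk3 (0.047), and for DKO minus DKO TAM Mdm2 (0.22); with upper quartile scaling, Mdm2 for DKO against p53KO (0.10). Leaving out 1 library gave -0.27 to 0.42 for Gadd45a in KO against FF, -0.19 to 0.14 for Mdm2 and -2.74 to 0.19 for Gadd45a in p53KO against FF, -0.27 to 0.053 for Mdm2 in DKO against p53KO, and -0.31 to 1.91 for Cdkn1a and -0.0019 to 0.17 for Mdm2 with tamoxifen. The cause was not tested. Library totals moved the median of all genes by 0.26 (KO against FF), 0.77 (DKO against p53KO), 0.35 (tamoxifen) and 0.43 (DKO against KO), and split their calls into 2744 higher and 550 lower, 8823 and 959, 4346 and 586, and 5924 and 1153. Upper quartile scaling gave 3457 and 2141 for DKO against KO. Differences of effects split into 1851 higher and 1077 lower (DKO minus KO) and 2336 and 1158 (DKO minus DKO TAM) with it, and into 3588 and 499, and 3376 and 668, with library totals. For p53KO against FF, 118 genes were called, against 190 with no filter, 181 with DESeq2, 143 higher and 57 lower with the replicate block and 30 to 62 without FF replicate 1, p53KO replicate 1 or p53KO replicate 2.

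The replicate number was shared by 2 pairs of libraries in 3 comparisons, and deviations correlated at 0.13 (KO and FF), -0.01 (tamoxifen) and 0.091 (p53KO and FF), which does not establish pairing. The replicate block was set within the 7-week and within the tamoxifen libraries. With it Plk3 was called in KO against FF (-0.77, adjusted p = 0.0015) and DKO against KO (0.51, 0.0059), where Cdkn1a (-1.78, 0.049) and Btg2 (-0.75, 0.048) were called too, and Btg2 in p53KO against FF (2.02, 0.019). A block over p53KO and FF instead, added after seeing the data, changed no call of the 10 (Btg2 1.96, adjusted p = 0.18). DKO shares 1 title number with p53KO and 1 with KO, so their libraries were not paired with these. Differences of effects for Cdkn1a and Psrc1, and the tamoxifen and p53KO against FF changes of Psrc1, were set aside after their values were seen, because a control group had 3 counts or fewer. Depth limits Psrc1, Cdkn1a in controls and Gadd45a most.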

Other observations

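The integrated stress response slows translation and acts through the transcription factor Atf4. Atf4 mRNA fell in all 3 comparisons of Gdown1 loss, by -0.88 on the log2 scale in KO against FF, -0.85 in DKO against p53KO and -0.73 in DKO TAM against p53KO TAM livers, and Atf5 by -0.81, -0.87 and -1.07. Of the 10 genes listed, 5 were higher and 4 lower in DKO against p53KO livers, where 25.7% of all tested genes were higher and 25.7% lower. In KO against FF livers 0 were higher and 2 lower, beside 6.92% and 7.88%, and in DKO TAM against p53KO TAM livers 0 were higher and 2 lower, beside 8.61% and 10.1% (edgeR, adjusted p under 0.05). Asns, which encodes asparagine synthetase, had a log2 fold change of 1.75 in DKO against p53KO livers and -0.88 in KO against FF livers, of which the first passed the test; their difference also passed (2.63).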
